A study of Mus musculus with 12 samples.

Results

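Gnas and Grb10 are imprinted genes of the mouse that are read from several promoters, so that different CpG islands of 1 gene can carry different methylation. They were described by 25 rows of the deposited methylation tables, of 176831 rows in the whole series. A row was taken when its Ensembl identifier was that of the gene (ENSMUSG00000027523 for Gnas, ENSMUSG00000020176 for Grb10), or when it was a CpG island or island shore that overlapped the gene's span. Gnas had 17 rows, namely 4 islands, 8 shores and 5 gene classes (promoter, utr5, exon, intron and utr3). Grb10 had 8 rows, namely 2 islands, 2 shores and 4 gene classes, with no utr3 row. Of the 25 rows, 22 were gene classes or lay wholly inside a gene, and 3 shores crossed a gene's 5-prime end. A level was present in all 12 libraries for 24 rows. Some rows share bases, since a shore can contain an island and gene classes can cover both. Counts of rows are therefore not counts of separate regions.

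The libraries were made by reduced representation bisulfite sequencing (RRBS), in which MspI cuts DNA at CCGG and bisulfite then separates methylated from unmethylated cytosine. There were 6 groups of 2 libraries, all of strain C57BL6. Female embryonic stem cells (ESC) and parthenogenetic embryonic stem cells (pESC, from activated oocytes that were not fertilised) were lines that carried an Actin-GFP transgene according to the study's methods. ESC-PGCLC and pESC-PGCLC were primordial germ cell-like cells made from these lines through an epiblast-like state with bFGF and Activin A and then with BMP4, SCF, EGF and LIF, and sorted on CD61 and SSEA1. E9.5 PGC and E12.5 PGC were primordial germ cells of embryonic day 9.5 and 12.5, taken from female embryos according to the methods and sorted on CD61 and SSEA1 or on SSEA1 alone. The libraries of a group were described in the paper as biological replicates. The labels did not say whether they came from separate cultures or litters, and the p-values measured the spread between these libraries. How many lines stood behind each stem cell group was not given in the sources used here, and methylation levels gave no check of cell identity by marker genes.

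In an imprinted gene, methylation placed in the egg or the sperm marks 1 parental copy, and germ cells erase these marks before they set new ones. At Gnas, the Nesp promoter makes the secretory protein NESP55 and is known for methylation on the paternal copy. The XL promoter makes XLas, a large form of the G protein subunit, and lies with the exon 1A promoter, which makes untranslated RNA, among regions known for methylation placed in the egg. The last promoter makes Gs alpha, the subunit that couples hormone receptors to adenylyl cyclase, and is known to be free of methylation on both copies. Grb10 encodes an adaptor that restrains insulin and growth factor receptor signalling. Its internal island is known for methylation placed in the egg, and the island at its 5-prime end for lacking methylation on both copies.

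The positions below are those of mm10. Gnas lies on the plus strand at chr2:174284320-174346744 and has 24 transcripts in GENCODE M21. Grb10 lies on the minus strand at chr11:11930508-12038683 and has 9 transcripts. The Nesp island (chr2:174284648-174285390, 743 bases) was wholly exonic. An island of 270 bases at chr2:174297263-174297532, called the upstream XL island here, was wholly intronic and lay within 500 bases of 7 transcript starts at position 174297859. The XL island (chr2:174298464-174300644, 2181 bases) was 90.2% exonic and had no start within 500 bases. The island at chr2:174327294-174331145, with 3852 bases, covered 10 starts of the exon 1A and the Gs alpha transcripts together, so its level averages both promoters. The Grb10 internal island (chr11:12025555-12026580, 1026 bases) and the Grb10 5-prime island (chr11:12036490-12038108, 1619 bases) were 47.5% and 13.0% exonic, and these exonic parts were untranslated.

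A stretch of 120 bases is shown from each of 4 islands whose levels followed different courses, read from GRCm38 in the direction of the gene and outside untranslated exons. In the Gnas stretches and in that of the Grb10 5-prime island, capitals mark the hexamer TGCCGC or its reverse complement GCGGCA, the motif to which the imprint-protecting factor ZFP57 binds when it is methylated. In the stretch of the Grb10 internal island, capitals mark 3 copies of a repeated word.
Nesp island, chr2:174284781-174284900, plus strand: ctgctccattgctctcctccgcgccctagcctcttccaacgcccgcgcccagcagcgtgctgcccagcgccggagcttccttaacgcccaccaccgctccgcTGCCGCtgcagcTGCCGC
XL island, chr2:174299586-174299705, plus strand: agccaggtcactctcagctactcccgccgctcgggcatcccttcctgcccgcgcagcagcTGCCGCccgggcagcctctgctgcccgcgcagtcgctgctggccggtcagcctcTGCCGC
Grb10 internal island, chr11:12026325-12026444, minus strand: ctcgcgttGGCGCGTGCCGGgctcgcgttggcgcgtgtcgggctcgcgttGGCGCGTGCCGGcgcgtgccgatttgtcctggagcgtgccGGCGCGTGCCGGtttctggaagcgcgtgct
Grb10 5-prime island, chr11:12036875-12036994, minus strand: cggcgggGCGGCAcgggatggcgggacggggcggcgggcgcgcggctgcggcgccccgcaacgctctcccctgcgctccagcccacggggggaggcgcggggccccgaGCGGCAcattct

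All of the islands held the hexamer on 1 strand or the other. The XL island and the exon 1A and Gs alpha island had 6 matches each, and 1.11% and 1.77% of windows of the same length placed at all 14559 islands on named chromosomes had as many. The Grb10 internal island and the Grb10 5-prime island had 4 matches each, with 3.33% and 4.87% of such windows reaching that count. The Nesp island had 2 and the upstream XL island had 1, counts that 19.2% and 30.3% of the windows reached. The 2 Grb10 islands differ in length, and their matches came to 3.90 per kb in the internal island and 2.47 per kb in the 5-prime island. Whether the matches bear on the levels was not tested. The most frequent word of 12 bases in the Grb10 internal island, ggcgcgtgccgg, occurred 7 times, and 9.55% of windows of the same length had a word with as many copies. The number of CCGG sites, where RRBS fragments begin, was 4 in the Nesp island, 5 in the upstream XL island, 21 in the XL island, 38 in the exon 1A and Gs alpha island, 18 in the Grb10 internal island and 21 in the Grb10 5-prime island.

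**Figure D1:**
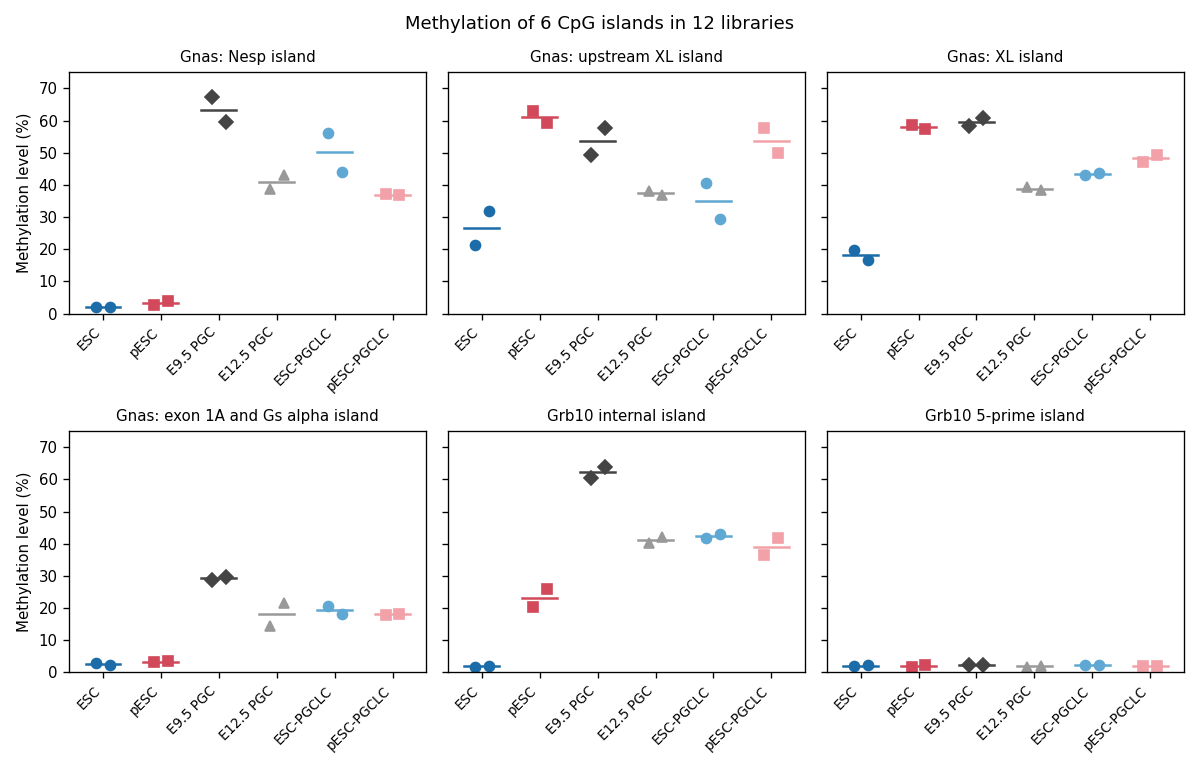
Methylation level (%, vertical axis) of the 4 Gnas islands and the 2 Grb10 islands in each of the 12 libraries; points are libraries, short lines are the means of 2 libraries, and groups are along the horizontal axis. The Nesp island was at 2.06% in ESC and at 63.4% in E9.5 PGCs, the XL island was already at 58.0% in pESCs, and the Grb10 5-prime island stayed between 1.60% and 2.43%.

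The Nesp island was nearly unmethylated in both kinds of stem cell and had its highest level in E9.5 PGCs. It held 2.07% and 2.04% in the ESC libraries and 2.76% and 3.87% in the pESC libraries. The E9.5 PGC libraries held 67.3% and 59.5%, and the E12.5 PGC libraries 38.7% and 43.0%. The ESC-PGCLC libraries held 56.3% and 44.1%, and the pESC-PGCLC libraries 37.1% and 36.9%. The stem cell groups therefore stood apart from every germ cell group, and the smallest gap between a pESC library and a pESC-PGCLC library was 33.0 points. Among the germ cell groups, no neighbours in the order of levels overlapped, with gaps of 1.63, 1.14 and 3.23 points.

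The XL island behaved differently in the stem cells, where the 2 kinds were far apart. The ESC libraries held 19.7% and 16.6%, and the pESC libraries 58.5% and 57.4%. The E9.5 PGC libraries held 58.4% and 60.9%, which overlapped with the pESC libraries, and the E12.5 PGC libraries 39.2% and 38.5%. The ESC-PGCLC libraries held 43.0% and 43.7%, and the pESC-PGCLC libraries 47.3% and 49.3%. ESC was thus the lowest group and pESC and E9.5 PGC were the highest, with E12.5 PGC and both kinds of PGCLC between them. The shore at chr2:174298745-174300745 had the same value as the XL island in all 12 libraries, so these 2 rows are 1 measurement.

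The upstream XL island, which is nearest to the XL starts, was more variable. Its ESC libraries held 21.5% and 31.9%, its pESC libraries 63.0% and 59.4%, and its E9.5 PGC libraries 49.3% and 57.7%. Its E12.5 PGC libraries held 38.0% and 36.9%, its ESC-PGCLC libraries 40.7% and 29.4%, and its pESC-PGCLC libraries 57.7% and 49.9%. The groups ESC, ESC-PGCLC and E12.5 PGC overlapped with their neighbours, as did E9.5 PGC with pESC-PGCLC.

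The exon 1A and Gs alpha island was near 3% in all stem cell libraries. The ESC libraries held 2.99% and 2.39%, and the pESC libraries 3.11% and 3.51%. The E9.5 PGC libraries held 28.8% and 29.8%, and the E12.5 PGC libraries 14.5% and 21.6%. The ESC-PGCLC libraries held 20.8% and 18.0%, and the pESC-PGCLC libraries 17.9% and 18.2%. E9.5 PGC was the highest group without overlap, and E12.5 PGC and the 2 kinds of PGCLC overlapped.

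The Grb10 internal island had a level in pESC that lay between those of ESC and of the germ cells. Its ESC libraries held 1.74% and 2.10%, and its pESC libraries 20.4% and 25.8%. Its E9.5 PGC libraries held 60.5% and 63.9%, and its E12.5 PGC libraries 40.2% and 42.0%. Its ESC-PGCLC libraries held 41.7% and 43.0%, and its pESC-PGCLC libraries 36.4% and 41.8%. E12.5 PGC and both kinds of PGCLC overlapped, and ESC, pESC and E9.5 PGC were each apart from all other groups. The Grb10 5-prime island, in contrast, had group means from 1.90% in pESC to 2.34% in E9.5 PGC.

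The shores differed among themselves, and some of them lay apart from the island beside them in some groups. The 4 shores around the Nesp island held 0.820% to 5.01% in the stem cell libraries and 53.9% to 64.5% in E9.5 PGCs. The shores at chr2:174296462-174298462 and chr2:174297532-174299533, around the XL start, held 20.1% to 24.9% in ESC and 57.2% to 62.7% in pESC. The shore at chr2:174295261-174297261 lay 11.9 kb from the gene start, next to the upstream XL island. It was low in ESC (17.8% and 5.22%), higher in pESC (38.0% and 40.3%) and low again in E9.5 PGC (12.8% and 27.1%). In Grb10 the shore at chr11:12026580-12028581, beside the internal island, held 16.7% and 10.4% in ESC, where the island held 1.74% and 2.10%. This shore held 27.4% and 24.4% in pESC, and 59.7% and 57.6% in E9.5 PGC. The shore at chr11:12038108-12040109, across the 5-prime end, held 19.3% to 43.7% in the 10 libraries that had a level and had none in ESC-PGCLC.

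**Figure D2:**
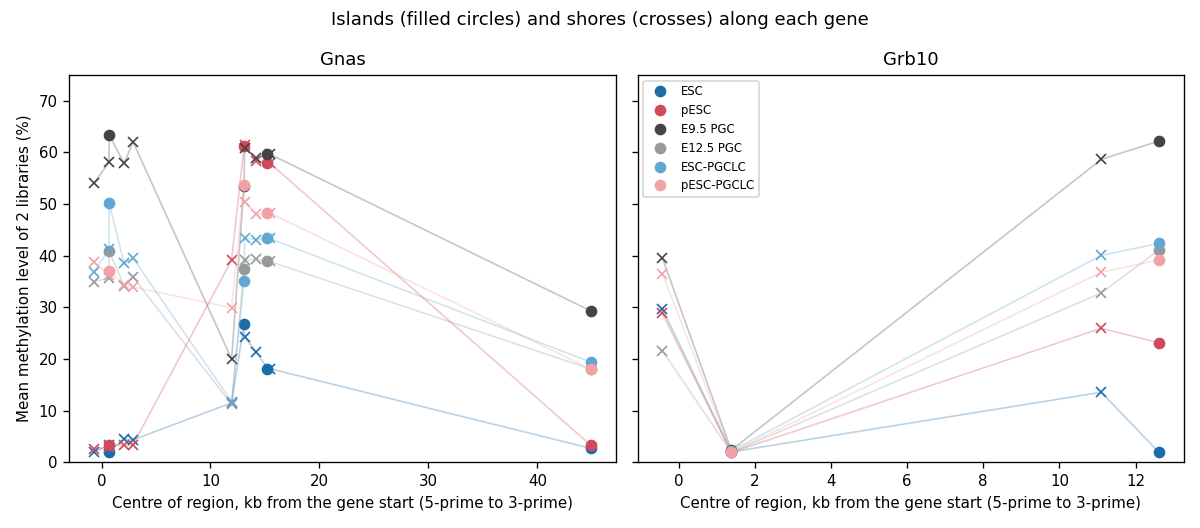
Mean methylation level of 2 libraries (%, vertical axis) of each island (circles) and shore (crosses) against the distance of its centre from the gene start in kb (horizontal axis), for Gnas on the left and Grb10 on the right, with 1 colour per group and faint lines that join neighbouring regions. Around the Nesp start both stem cell groups lie near the bottom, whereas 13.1 to 15.4 kb further on the pESC points lie with those of E9.5 PGC and the ESC points near 20%.

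The gene class rows, which average over all promoters or exons of a gene, showed this difference to unequal extents. The Gnas exon row held 16.1% and 15.0% in ESC and 45.1% and 45.5% in pESC, whereas the Gnas promoter row held 5.50% and 3.90% in ESC and 8.20% and 9.63% in pESC. In E9.5 PGC the Gnas promoter row held 48.7% and 47.5%, and in E12.5 PGC 26.1% and 34.1%. The Grb10 promoter row held 11.5% and 7.61% in ESC, 14.7% and 13.7% in pESC, and 30.0% and 31.7% in E9.5 PGC. The exon and utr5 rows of Grb10 had the same values in every library, between 2.61% and 9.01%. Which transcript starts the promoter rows cover was not given in the sources used here.

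Across all islands the mean level differed between the cell stages as well, which bears on every germ cell comparison. The mean over CpG islands was 3.59% in ESC, 3.59% in pESC, 7.33% in E9.5 PGC, 5.31% in E12.5 PGC, 5.91% in ESC-PGCLC and 5.49% in pESC-PGCLC. The 12 files held levels for 144375 to 166476 features each and gave no read counts, so the depth is unknown and no counting interval can be given. Tests were run with limma over all features on the log2 odds of the level, and a feature is said to be called where the Benjamini-Hochberg adjusted p was below 0.05 and the means differed by at least 10 percentage points. The differences between groups are given in percentage points with the SE of the difference over 2 libraries against 2.

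The first comparison was between pESC and ESC, which differ in whether a paternal genome was present. Both XL islands and the Grb10 internal island had higher levels in pESC, and the Nesp island, the exon 1A and Gs alpha island and the Grb10 5-prime island differed by under 2 points. None of the Gnas and Grb10 rows was called (0 of 25), beside 0% of all features (0 of 148012). At an unadjusted limma p under 0.05 there were 13 of the 25 rows, and 2054 of all features. A difference of 10 points or more was present in 11 of 25 rows, and in 2.35% of all features. The 2 libraries of each group did not overlap in 20 of 25 rows, some of which share bases. The gap was as small as 0.112 points, in the exon 1A and Gs alpha island. The like share over all features was not computed, so this count is given without a reading.

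The XL island differed between pESC and ESC by 39.8 points (SE 1.66, n = 2 libraries per group, limma adjusted p = 0.301). Only 4 of 13987 islands with levels in both groups, the XL island included, had a difference as large or larger. For the upstream XL island the difference was 34.5 points (SE 5.50, adjusted p = 1), and 6 islands had as much. The Grb10 internal island differed by 21.2 points (SE 2.71, adjusted p = 0.15), and 14 islands had as much. Only 20 islands, 0.143% of them, differed by 10 points or more in this direction, and 3 of those 20 were these islands. The Nesp island had a difference of 1.26 points (SE 0.555), the exon 1A and Gs alpha island one of 0.617 points (SE 0.364) and the Grb10 5-prime island one of -0.103 points (SE 0.337). The Gnas exon row differed by 29.8 points (SE 0.546, adjusted p = 0.569) and the Grb10 intron row by 10.9 points (SE 0.550, adjusted p = 1).

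The call in this comparison depended on which features or libraries shared the fit. Where islands and shores were tested without gene classes and repeats, and gene classes without the others, 41 features were called. Of these, 4 were Gnas or Grb10 rows, namely the Grb10 internal island (adjusted p = 0.00376), the XL island (adjusted p = 0.0246), the shore with the same values, and the shore 174297532-174299533 of chromosome 2 (adjusted p = 0.0448). Where all 12 libraries shared 1 fit, 70 features were called and 7 of them were Gnas or Grb10 rows. Without pESC replicate 1, 742 features were called, of which 1 was such a row, the Grb10 internal island, and without pESC replicate 2 there were 91, with 0 such rows.

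Promoter rows of other imprinted genes were set beside these values. Of 22 genes of known egg-methylated regions, 13 promoter rows were tested between pESC and ESC, 9 differed by at least 10 points and 0 were called, with a median difference of 27.7 points against 0.0265 over all promoters. Of 5 genes of known sperm-methylated regions, 1 promoter differed by at least 10 points and 0 were called, with a median difference of -0.270. The Gnas and Grb10 promoter rows differed by 4.22 and 4.67 points, below most of the egg-methylated list. Of the neighbouring genes, 10 promoters near Gnas had a median difference of 0.121 points and 6 near Grb10 one of 0.129 points. Among these, 1 near Gnas differed by over 10 points, namely Vapb, which held 24.3% in 1 pESC library and 2.56% in the other. The other G alpha genes (13 promoters, from -0.323 to 1.18 points) and 17 partners in insulin and cyclic AMP signalling (from -1.35 to 1.60 points) showed no difference of 10 points, and the 1 tested promoter of the other Grb7-family adaptors differed by 2.97 points.

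Between E9.5 and E12.5, when germ cells lose methylation across the genome, levels fell at nearly all Gnas and Grb10 regions. Of 24 tested rows, 20 were called and all 20 were lower at E12.5, beside 49.6% of all 137202 features called, of which 68002 of 68050 were lower. The Nesp island fell by 22.5 points (SE 4.44, adjusted p = 0.00590), the XL island fell by 20.8 points (SE 1.29, adjusted p = 0.000156) and the Grb10 internal island fell by 21.1 points (SE 1.90, adjusted p = 0.000531). The upstream XL island fell by 16.1 points (SE 4.25, adjusted p = 0.0340) and the exon 1A and Gs alpha island fell by 11.2 points (SE 3.61, adjusted p = 0.0136). The rows that were not called were the variable shore 11.9 kb from the Gnas start, the Grb10 5-prime island, and the exon and utr5 rows of Grb10.

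The shares of the E9.5 level that were left at E12.5 lay near those of other methylated islands. At E12.5 the Nesp island held 64.4% of its E9.5 level, the XL island 65.2%, the upstream XL island 69.9%, the exon 1A and Gs alpha island 61.6% and the Grb10 internal island 66.1%. Over the 1036 islands with 20% or more at E9.5, the median was 64.5% and the quartiles 58.9% and 69.9%. When levels were centred library by library on the median, 0 of 24 rows were called, beside 24392 of all features. The rows then had 13 positive and 11 negative differences. Before centring, the median of all features differed by -0.86 on the log2 odds scale. Of the promoter lists, 11 of 12 tested egg-methylated genes, 4 of 13 other G alpha genes and 3 of 17 signalling partners were called between E12.5 and E9.5, all lower at E12.5, beside 32.2% of all promoters.

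**Figure D3:**
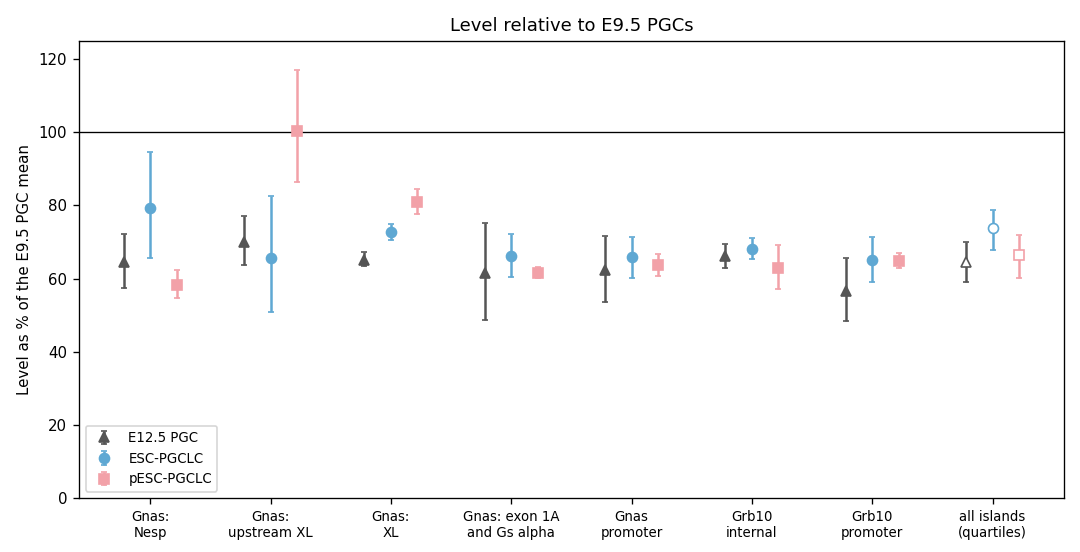
Level of 5 islands and the 2 promoter rows as a percentage of the E9.5 PGC mean (vertical axis) in E12.5 PGC, ESC-PGCLC and pESC-PGCLC; filled points are ratios of group means, bars run from the lowest to the highest ratio that pairs of libraries allow, and open points with bars give the median and quartiles of 1036 islands. The XL island and the upstream XL island in pESC-PGCLC lie at 80.9% and 100.4%, and the other filled points lie between 56.7% and 79.2%.

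PGCLCs were compared with E9.5 and E12.5 PGCs to place them in this course. These comparisons share control libraries, so their counts are given side by side only. Against E9.5 PGC, 17 of 24 rows were called in ESC-PGCLC and all were lower, beside 29.8% of all features. In pESC-PGCLC, 18 of 24 were called against E9.5 PGC and all were lower, beside 40.3% of all features. Against E12.5 PGC, 0 of 24 rows were called in ESC-PGCLC, beside 22.8% of all features. At an unadjusted limma p under 0.05 there were 5 of these 24 rows, and 61104 of all 137202 features. In pESC-PGCLC, 1 of 24 rows was called against E12.5 PGC and was higher, beside 7.1% of all features. That background was itself unstable, since 9740 features were called with all libraries and 10 to 1793 with any 1 of the 4 libraries left out. After centring, the counts against E9.5 PGC were 0 for ESC-PGCLC and 4 for pESC-PGCLC, beside 12535 and 18934 of all 137202 features.

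The XL end of Gnas stood higher in pESC-PGCLC than in E12.5 PGC. The shore at chr2:174296462-174298462, which was the called row, held 49.6% and 51.1% in pESC-PGCLC and 37.3% and 40.9% in E12.5 PGC, a difference of 11.2 points (SE 1.95, adjusted p = 0.0295). The call was lost when any 1 of the 4 libraries was left out, when islands and shores were tested alone, with 12 libraries in 1 fit and after centring. The XL island differed by 9.39 points (SE 1.05, adjusted p = 0.0291), which was under the 10-point minimum, and the upstream XL island by 16.3 points (SE 3.95, adjusted p = 0.0867). Against E9.5 PGC, the upstream XL island of pESC-PGCLC differed by 0.234 points (SE 5.74, adjusted p = 0.978), whereas the XL island fell by 11.4 points (SE 1.59, adjusted p = 0.00256). After centring, that fall was not called and its log2 odds turned to 0.15 (adjusted p = 0.381). The Nesp island of pESC-PGCLC fell by 26.4 points against E9.5 PGC (SE 3.91, adjusted p = 0.00388), and that of ESC-PGCLC had a difference of -13.2 points (SE 7.22, adjusted p = 0.0617).

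The 2 kinds of PGCLC were then compared with each other. None of the 24 rows was called (0 of 24), beside 0.0948% of all features. At an unadjusted limma p under 0.05 there were 8 of the 24 rows, and 26558 of all 137202 features. The upstream XL island had the widest difference, 18.7 points higher in pESC-PGCLC (SE 6.87, adjusted p = 0.161), and the Nesp island one of -13.2 points (SE 6.08, adjusted p = 0.214). The XL island differed by 4.95 points (SE 1.06, adjusted p = 0.223) and the Grb10 internal island by -3.22 points (SE 2.78, adjusted p = 0.521). In the XL island the libraries of the 2 groups did not overlap, and in the Grb10 internal island they did.

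Induction was followed from each kind of stem cell to the PGCLCs made from it. From ESC to ESC-PGCLC, 19 of 24 rows were called and all 19 rose, beside 14.6% of all features. The 2 ESC libraries stood apart over all features, with means of 21.3% and 25.9%. Without ESC replicate 1 the features called rose from 19923 to 35492, and 19 rows were called as before. From pESC to pESC-PGCLC, 8 of 24 rows were called and all 8 rose, beside 9.66% of all features. The Nesp island rose by 48.1 points from ESC (SE 6.08, adjusted p = 8.4e-05) and by 33.7 points from pESC (SE 0.565, adjusted p = 0.00027). The exon 1A and Gs alpha island rose by 16.7 points from ESC (SE 1.40, adjusted p = 0.000193) and by 14.7 points from pESC (SE 0.236, adjusted p = 0.000468). The 4 shores around the Nesp island were called in both inductions, with rises from 30.5 to 37.9 points.

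Without centring, the Grb10 internal island was called in both inductions and the XL island in the induction from ESC. The XL island rose by 25.2 points from ESC (SE 1.60, adjusted p = 0.00106), and from pESC it had a difference of -9.67 points (SE 1.14, adjusted p = 0.15). After centring, the XL island was still called from ESC (log2 odds of 0.57, limma adjusted p = 0.0328). From pESC its centred log2 odds were -1.47 (limma adjusted p = 0.00356), not called because the difference was under the 10-point minimum. The Grb10 internal island rose by 40.4 points from ESC (SE 0.700, adjusted p = 7.7e-05) and by 16.0 points from pESC (SE 3.82, adjusted p = 0.0255). The call from pESC was lost after centring (log2 odds of 0.15, adjusted p = 0.627). The upstream XL island had differences of 8.42 points (SE 7.69) and -7.41 points (SE 4.29) and was called in neither. The Gnas promoter rose by 27.0 and 21.8 points, and the Grb10 promoter rose by 10.5 points from ESC and had a difference of 5.81 points from pESC. With each library centred on its median, 12916 of all features were called from ESC and 11216 from pESC, of which 72.6% and 71.1% were higher. Among the 24 rows, 14 were called from ESC, and 9 from pESC, of which 7 were positive and 2 negative. The negative ones were the shores at chr2:174296462-174298462 and chr2:174297532-174299533, around the XL start.

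The difference between the inductions was tested as an interaction of origin and induction. It was called for 1 of 24 rows, beside 0.0365% of all features (50 of 136848). This row was the Grb10 internal island, whose change was smaller from pESC by -24.4 points (SE 3.89, adjusted p = 0.0351). That call was lost with an offset of 0.1, with untransformed levels, after centring and with any 1 of the 8 libraries left out. With untransformed levels 1 of the 24 rows was called, a different one. The XL island had an interaction of -34.9 points (SE 1.97, adjusted p = 0.12), and the Gnas exon row one of -26.2 points (SE 1.14, adjusted p = 0.198). The Nesp island had -14.5 points (SE 6.10, adjusted p = 1) and the exon 1A and Gs alpha island -1.99 points (SE 1.42, adjusted p = 1). Among the 12 promoter rows of egg-methylated genes tested, 4 had a called interaction (Mest, Peg10, Sgce and Zrsr1), all negative.

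**Figure D4:**
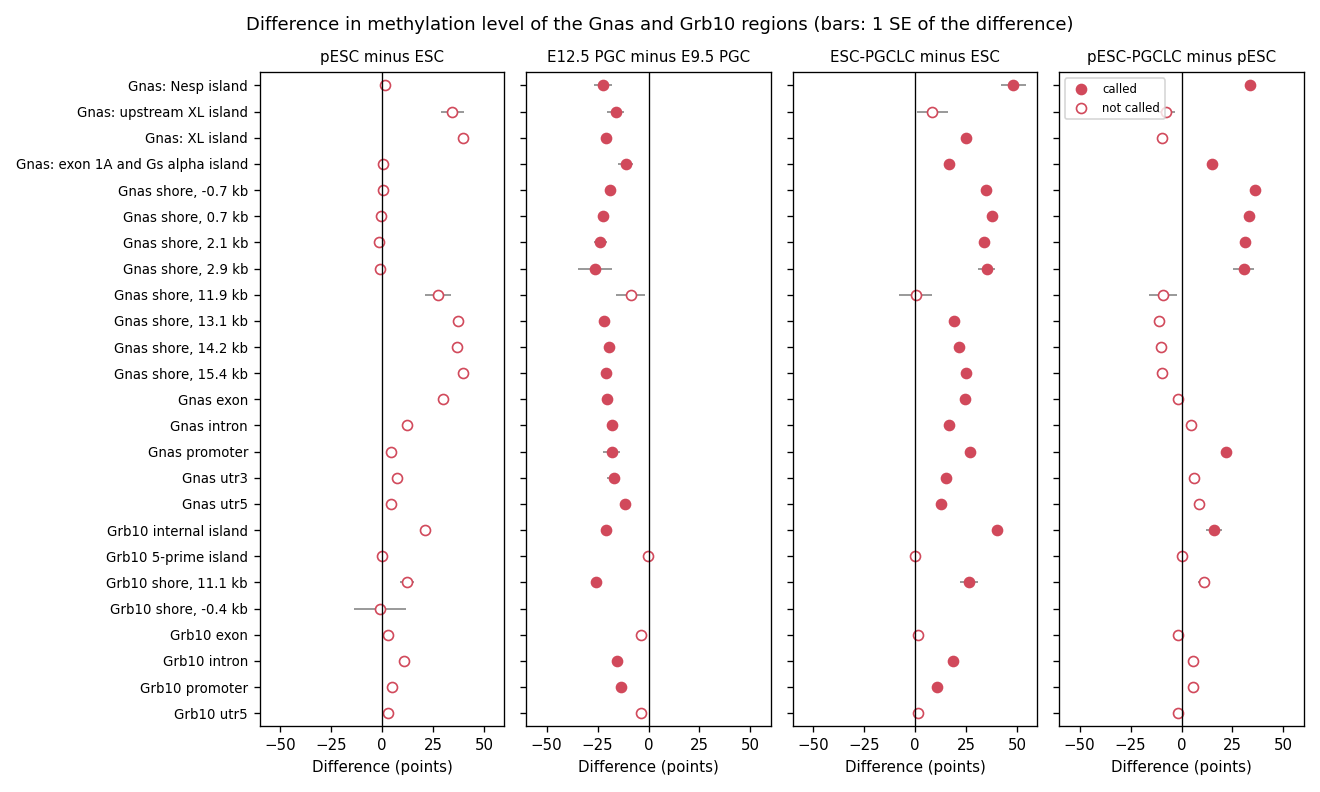
Difference in methylation level in percentage points (horizontal axis) of each of the 25 rows (vertical axis; shores are named by the distance of their centre from the gene start) in 4 comparisons, with bars of 1 SE of the difference; filled points were called and open points were not. The Grb10 shore at -0.4 kb had no level in ESC-PGCLC and appears in the first panel only, and the XL island and the shores beside it lie to the right of 0 from ESC and to the left of 0 from pESC.

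From ESC to ESC-PGCLC, 2 of 10 promoters near Gnas and 1 of 6 near Grb10 were called and rose, beside 12.9% of all promoters called. From pESC to pESC-PGCLC the counts were again 2 of 10 and 1 of 6, beside 9.23% of all promoters. Nespas is an antisense gene (chr2:174281237-174295436) that starts between the Nesp and XL promoters and overlaps Gnas, so that the rows of both genes may share cytosines. Its promoter held 8.29% and 6.42% in ESC, 12.7% and 14.8% in pESC, and 51.1% and 57.5% in E9.5 PGC. Ddc, the dopa decarboxylase gene next to Grb10, held 5.33% and 5.34% in ESC, 4.70% and 5.43% in pESC, and 54.9% and 59.2% in E9.5 PGC. The promoters of Nespas and Npepl1 near Gnas and of Ddc were the ones above 10% in both E9.5 PGC libraries together with that of Nelfcd, and those of the other genes, apart from Spata48 in 1 library, stayed below 10% there.

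The islands elsewhere in the genome whose 12 levels were closest to each member were found by the mean absolute difference over 12 libraries. For the XL island these were the islands at Nap1l5 (3.18 points), Impact (3.78 points) and Inpp5f (4.37 points). For the upstream XL island they were those at Nap1l5 (6.19 points), Impact (6.39 points) and Kcnq1ot1 (6.59 points). The Grb10 internal island was closest to the island at Plagl1 (2.99 points), which held 1.65% in ESC, 28.5% in pESC and 60.2% in E9.5 PGC, and then to those at Fut7 (4.52 points) and Tnfaip8l2 (4.64 points). The Nesp island was closest to islands at Tnfaip8l2 (2.36 points), Mdga1 (2.91 points) and Trim72 (3.29 points), each below 4% in ESC and pESC and above 60% in E9.5 PGC. The exon 1A and Gs alpha island was closest to islands at Gm48255 (1.57 points), at a place on the X chromosome with no gene within 500 bases (1.58 points), and at Slc25a43 (1.62 points). For the Gnas promoter row the closest islands were at Ccnd3-ps, at 4732471J01Rik and at Panx2 (2.21 to 2.67 points), and for the Grb10 promoter row at Npas4, Krt7 and Exoc3l2 (2.36 to 2.73 points).

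Differences between stem cells and E9.5 PGCs as large as those of these islands were found at many other islands. From ESC to E9.5 PGC the Nesp island differed by 61.4 points and the Grb10 internal island by 60.3 points, and 250 and 263 of 13824 islands had as much. The XL island differed by 41.5 points, which 516 islands reached, and 9.32% of islands differed by 10 points or more. From pESC to E9.5 PGC the XL island differed by 1.71 points and the upstream XL island by -7.64 points, whereas the Grb10 internal island differed by 39.0 points and the Nesp island by 60.1 points. No test was run between stem cells and PGCs.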

How the data were processed

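The authors deposited, for each of 12 RRBS libraries, a table of methylation levels as a fraction from 0 to 1 per CpG island, island shore, promoter, utr5, exon, intron, utr3 or repeat. Per the labels, reads were aligned to mm10 with Bismark (version 0.16.3) and Bowtie2. The methods describe a correction of levels for bisulfite non-conversion, but do not say whether the deposited feature levels carry it. The coverage minimum and the promoter definition were not given in the sources used here. The tables hold no read counts, so depth and counting error are unknown.

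The members and gene lists were chosen with earlier results of these data known. Named regions were all islands and promoter rows of both genes, other rows by range or where called, and the 3 islands closest to each member with a mean of 10% or more. Levels with an offset of 0.01 were put on the log2 odds scale and tested with limma (version 3.58.1, R 4.3.3), with Benjamini-Hochberg adjustment over all features that had values in each library of a fit. Separate fits held the stem cells (4 libraries), the PGCs and PGCLCs (8 libraries), and the stem cells and PGCLCs (8 libraries). The code was tested on simulated data. Sequences came from GRCm38, and 14559 of 14559 islands on named chromosomes began with CG when starts were counted from 0. GENCODE M21 held 30041 of the 30073 gene identifiers. Alternatives were another offset, untransformed levels, missing levels allowed, classes tested apart, 1 fit of 12 libraries, centring on library medians, a replicate block, each library left out, no minimum difference, and regions wholly inside the genes.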

Additional observations from a re-analysis of the deposited data

Results flagged for a closer look

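The change on induction differed between cells of ESC and of pESC origin at the Grb10 internal island by the interaction test (-24.4 points, limma adjusted p = 0.0351). That call was lost with an offset of 0.1, with untransformed levels, after centring and with any 1 of the 8 libraries left out. At 5 more rows, several of which share bases, the interaction was not called. There the PGCLC libraries lay above the stem cell libraries in the ESC origin and below them in the pESC origin, without overlap. These rows were the XL island and the shore at chr2:174298745-174300745 with the same values (-34.9 points each, adjusted p = 0.12), the shore at chr2:174297532-174299533 (-32.1 points, adjusted p = 0.18), the shore at chr2:174296462-174298462 (-30.3 points, adjusted p = 0.25) and the Gnas exon row (-26.2 points, adjusted p = 0.198). From pESC to pESC-PGCLC the Gnas exon row had a difference of only -1.82 points, with a gap of 0.721 points between libraries. For the XL island these values were -9.67 and 8.12 points. How many of all features met this rule was not computed.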

How the results depend on the processing

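Between pESC and ESC, 0 rows were called, against 4 with islands and shores or gene classes alone, 7 with 12 libraries in 1 fit, and 0 to 1 with a library left out (1 without pESC replicate 1, the Grb10 internal island, where all called features went from 0 to 742). Centring on library medians moved the called rows from 20 to 0 between E12.5 and E9.5 PGC, from 17 to 0 and from 18 to 4 for ESC-PGCLC and pESC-PGCLC against E9.5 PGC, and from 1 to 0 for pESC-PGCLC against E12.5 PGC and for the interaction. In the same order, all called features moved from 68050 to 24392, 40911 to 12535, 55337 to 18934, 9740 to 1091 and 50 to 39. The centred log2 odds turned positive between E12.5 and E9.5 PGC for the upstream XL island (0.188), the exon 1A and Gs alpha island (0.213), the Gnas promoter (0.0209) and the Grb10 promoter (0.0711), and for the XL island between pESC-PGCLC and E9.5 PGC (0.153). Many differences that were not called before centring turned sign as well. For example, the Grb10 5-prime island turned to 0.91 between E12.5 and E9.5 PGC (adjusted p = 0.00122, under the 10-point minimum). The Grb10 promoter turned to -0.35 on induction of pESC and the upstream XL island to -0.60 on induction of ESC. Against E12.5 PGC, the rows of ESC-PGCLC had 23 positive and 1 negative differences before centring, and 1 positive and 23 negative after it. For pESC-PGCLC there were 20 positive and 4 negative before centring, and 7 positive and 17 negative after it. The direction of most rows against E12.5 PGC thus depended on centring. The median of all features was shifted by -0.86 between E12.5 and E9.5 PGC, by -0.44 and -0.60 for ESC-PGCLC and pESC-PGCLC against E9.5 PGC, by 0.34 and 0.20 against E12.5 PGC, by -0.14 between the PGCLCs, by 0.26 and 0.17 on induction and by -0.14 for the interaction. Among called features, centring moved the share that was higher from 96% to 76.1% for pESC-PGCLC against E12.5 PGC, from 46.9% to 70.5% between the PGCLCs, and from 93.8% to 72.6% and from 92.3% to 71.1% on induction of ESC and pESC.

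For pESC-PGCLC against E12.5 PGC, 0 rows were called with islands and shores alone, with 12 libraries and with any library left out, and 5 with no minimum difference. For the interaction, 0 were called with the offset of 0.1 and with any library left out, and 7 with 12 libraries. Leaving out 1 library gave 16 to 20 rows between E12.5 and E9.5 PGC, 12 to 18 and 14 to 17 against E9.5 PGC, 17 to 19 and 7 to 8 on induction, and 0 between PGCLCs and for ESC-PGCLC against E12.5 PGC. The cause of these changes was not tested beyond how each alternative is built. The replicate block, in which libraries were matched only by the number in their labels, left the counts at 0, 20, 17, 18, 0, 1, 0, 19, 8 and 1, in the order of the comparisons in the text. Between pESC and ESC, the block moved the rows at an unadjusted limma p under 0.05 from 13 to 16. Deviations of libraries with the same number correlated at 0.432 between ESC and pESC and from -0.0573 to 0.1385 between other groups. With 2 libraries a group and no read counts, small differences cannot be judged.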
